A study of Mus musculus with 10 samples.

Results

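The proteasome genes of the mouse liver were compared between mice given an antisense oligonucleotide (ASO) against Mboat7 and mice given a control ASO. Members were taken by symbol alone: every gene whose symbol starts with Psm, then a letter from a to g, then a digit. This gave 50 of the 24411 genes in the table, of which 48 reached the minimum level for testing. Psmb11 had 0 counts in all 10 libraries and Psmc3ip stayed below the minimum.

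The proteasome is the protease that degrades ubiquitin-tagged proteins in every cell. Its 20S core is a barrel of alpha rings around beta rings, and the beta subunits encoded by Psmb6, Psmb7 and Psmb5 carry the caspase-like, trypsin-like and chymotrypsin-like sites. The 19S cap, made of ATPases (Psmc genes) and non-ATPase subunits (Psmd genes), recognises, unfolds and feeds in the substrate. In leukocytes and in cells exposed to interferon-gamma, the inducible subunits Psmb9, Psmb10 and Psmb8 take the places of Psmb6, Psmb7 and Psmb5 to form the immunoproteasome, which is known for making peptides for MHC class I. The PA28 activator encoded by Psme1 (alpha) and Psme2 (beta) is induced by the same cytokine. In hepatocytes the constitutive form is the usual one, and the transcription factor NRF1, encoded by Nfe2l1, is known to keep up the transcription of the constitutive genes.

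Liver homogenate RNA was sequenced from 5 Mboat7 ASO libraries, numbered 6 to 10, and 5 control ASO libraries, numbered 1 to 5. The mice were C57BL/6 males, 8 weeks old at the start, on a high-fat diet, and both groups were injected into the peritoneum at 12.5 mg/kg for 20 weeks. The study used 2 Mboat7 ASOs and the labels do not say which was given here. By the labels, the tissue was severe fatty liver for Mboat7 ASO mice and normal liver for control ASO mice. The ASO acts on the whole animal and the tissue is a homogenate, so less RNA per cell and fewer cells of a type cannot be told apart in any value given here.

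Library totals were 26232977 to 28791798 counts in the Mboat7 ASO group and 25153235 to 27912213 counts in the control ASO group. Mboat7 fell to 2.89, 3.81, 4.66, 3.23 and 1.97 CPM (counts scaled to library size after upper-quartile normalization) in the Mboat7 ASO libraries, against 42.3, 41.9, 43.7, 40.0 and 36.2 CPM in the control ASO libraries, and every library matched its label. Alb, the albumin gene that marks hepatocytes, was at 59568 to 93450 CPM in the Mboat7 ASO libraries and 93494 to 106845 CPM in the control ASO libraries. Of the 12609 genes tested by edgeR's quasi-likelihood test at a Benjamini-Hochberg false discovery rate (FDR) of 0.05, 21.2% rose and 17.3% fell. Every Mboat7 ASO library lay above every control ASO library for 10.5% of the genes tested, and below for 10.7%.

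The promoters shown are of inducible and constitutive genes picked for holding a match to the short motifs through which such genes are known to be controlled. The windows run from 250 bases before to 50 bases after the RefSeq start on the GRCm38.p6 assembly, on the strand of the gene, for Psmb8 (chr17:34197945-34198244, plus strand), Psme1 (chr14:55578244-55578543, plus strand), Psmb5 (chr14:54617946-54618245, minus strand) and Psmb6 (chr11:70525107-70525406, plus strand). Capitals mark the interferon-gamma activated site TTCNNNGAA in Psmb8, the interferon response core GAAANNGAA (here on the other strand) in Psme1, and the antioxidant response element core TGACNNNGC, a letter pattern bound by NRF factors, in Psmb5 and Psmb6.
Psmb8: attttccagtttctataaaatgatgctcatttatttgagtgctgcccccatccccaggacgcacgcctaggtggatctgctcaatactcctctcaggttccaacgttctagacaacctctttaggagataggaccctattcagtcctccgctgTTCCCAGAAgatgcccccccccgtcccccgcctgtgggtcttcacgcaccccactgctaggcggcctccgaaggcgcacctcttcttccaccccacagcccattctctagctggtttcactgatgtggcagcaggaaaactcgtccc
Psme1: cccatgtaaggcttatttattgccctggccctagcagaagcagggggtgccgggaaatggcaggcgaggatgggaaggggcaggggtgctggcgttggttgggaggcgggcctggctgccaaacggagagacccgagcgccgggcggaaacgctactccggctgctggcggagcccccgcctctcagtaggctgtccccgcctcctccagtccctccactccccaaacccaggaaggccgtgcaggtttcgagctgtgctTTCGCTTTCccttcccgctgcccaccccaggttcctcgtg
Psmb5: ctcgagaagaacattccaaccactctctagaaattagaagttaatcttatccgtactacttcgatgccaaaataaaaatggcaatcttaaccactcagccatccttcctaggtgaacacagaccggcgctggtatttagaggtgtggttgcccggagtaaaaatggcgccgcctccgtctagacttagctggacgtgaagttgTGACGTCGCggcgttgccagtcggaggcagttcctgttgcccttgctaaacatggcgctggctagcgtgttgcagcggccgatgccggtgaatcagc
Psmb6: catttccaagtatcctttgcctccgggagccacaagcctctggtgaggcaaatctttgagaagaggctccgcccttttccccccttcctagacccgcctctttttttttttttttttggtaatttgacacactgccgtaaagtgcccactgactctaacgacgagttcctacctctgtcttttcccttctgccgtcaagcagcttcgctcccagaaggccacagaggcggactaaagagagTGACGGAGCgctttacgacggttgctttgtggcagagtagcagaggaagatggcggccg

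Both strands were searched, and each of these 4 windows held a single match among the motifs looked for. RefSeq windows were at hand for 42 of the 50 members, Psmb7 not among them. The interferon-gamma activated site was found in 3 of these 42 genes, against 9.55% of 27025 genes of the genome, and the members were Psmb8 (97 bases before the start), Psmd2 and Psmg1. The interferon response core was in 7 of 42 members, against 9.76% of all genes. These were Psme1, Psmb3, Psmb4, Psmc2, Psmd4, Psmd9 and Psmg4. No window of Psmb9, Psmb10 or Psme2 held either interferon motif or the antioxidant core. The antioxidant core was in 6 of 42 members, against 14% of all genes, and lay 47 bases before the start in Psmb5 and 9 bases before it in Psmb6. The CCAAT box was in 15 of 42 members, against 41.1% of all genes. Such matches are a description of letters and not of bound sites.

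Most proteasome genes were slightly lower in the Mboat7 ASO livers. Of the 48 members tested, 29 fell and 1 rose, against 17.3% and 21.2% of all genes tested, and 18 did not pass. The members that fell were 9.09% to 27.4% lower, and no member changed by 2-fold. The median log2 fold change, given throughout as Mboat7 ASO over control ASO, was −0.23 for the members and 0.01 for all genes tested. The sign was negative in 46 of the 48. For 24 members (50.0%) every Mboat7 ASO library lay below every control ASO library, against 10.7% of all genes tested, and for 0 members the order was the other way, against 10.5%.

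**Figure D1:**
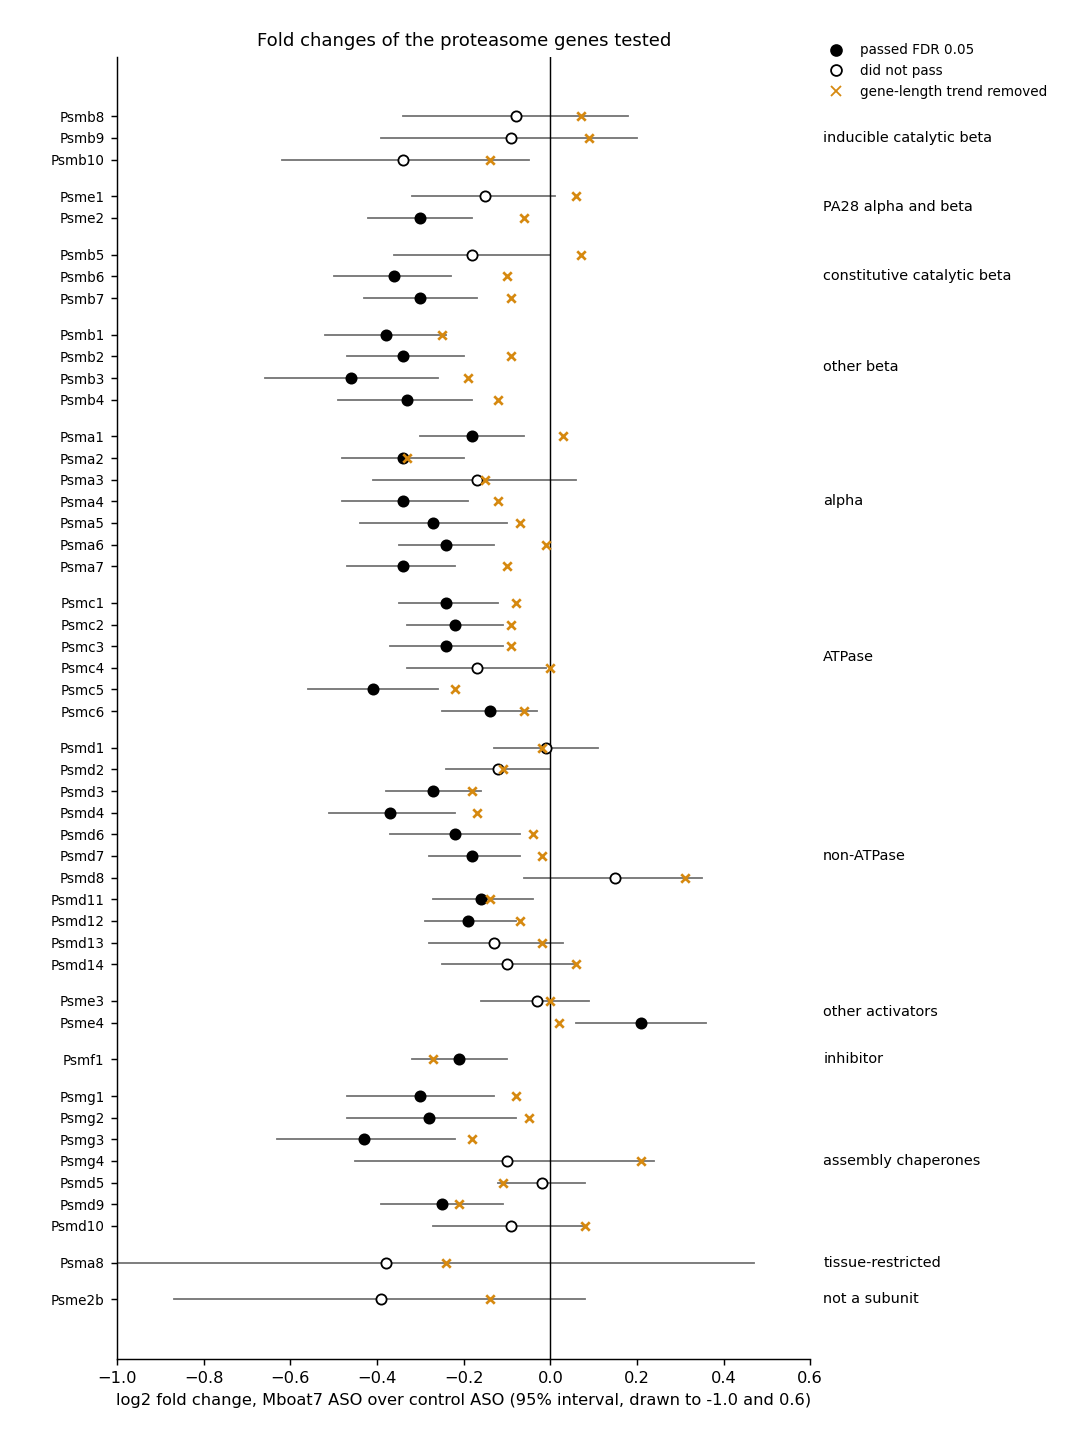
Log2 fold change (Mboat7 ASO over control ASO, x axis) of the 48 proteasome genes tested, grouped by role down the page, with 95% intervals from edgeR; filled circles passed FDR 0.05, open circles did not, and crosses give the value after the gene-length trend was removed. Of the 48, 29 filled circles lie left of 0 and 1, Psme4, lies right of it, while most crosses lie nearer to 0.

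These genes are short, and in these libraries the fold change went with transcript length over all genes. The median log2 fold change was −0.19 in the shortest 2510 genes (median 1.24 kb) and 0.20 in the longest 2510 genes (median 6.43 kb). The median transcript was 1.44 kb for the members and 2.98 kb for all genes tested. With this trend removed by a fitted curve, 6 members fell and 1 rose, against 12.0% and 16.0% of the 12548 genes with a length, and the median of the members was −0.08. Scaled by library totals alone, so that the median of all genes tested became 0.17, 11 members fell and 3 rose, against 6.10% and 37.1% of all genes. In the 20 other fits tried, 3 members, Psma2, Psmb1 and Psmc5, passed as lower in every one. Across the 48 members, Spearman's rho between fold change and length was 0.51, and across the 12548 genes it was 0.37. Both are descriptions over genes that share the same 10 libraries.

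**Figure D2:**
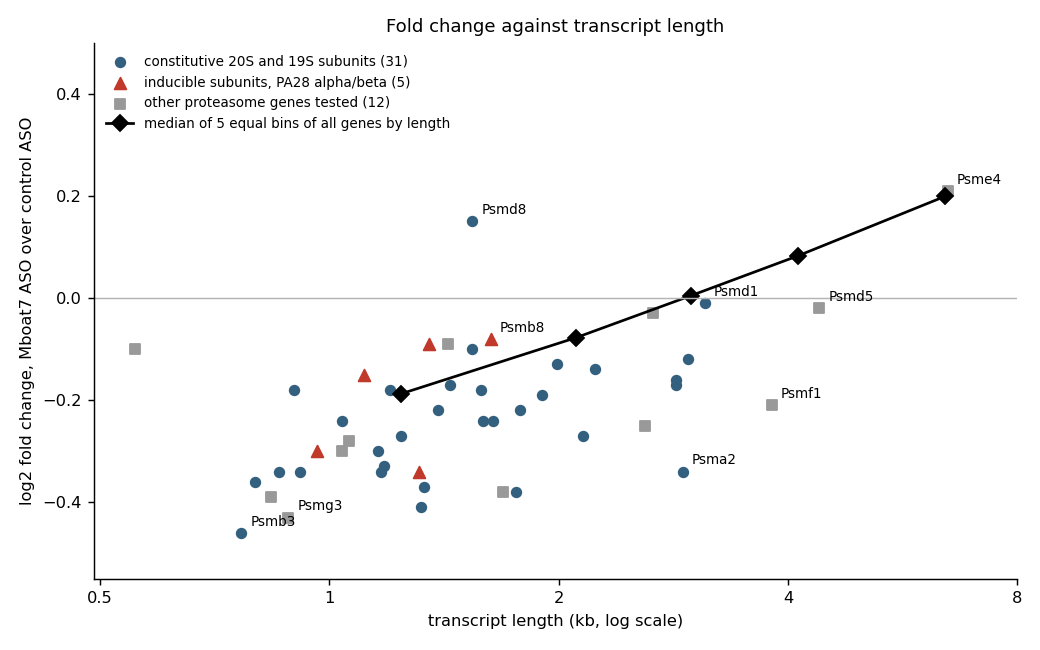
Log2 fold change (Mboat7 ASO over control ASO) against transcript length on a log axis for the 48 proteasome genes tested, with diamonds at the medians of 5 equal bins of all genes by length. The medians of the bins run between −0.19 and 0.20, and most proteasome genes lie at or below the line they make.

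The 3 inducible catalytic subunits did not pass the test in either direction. edgeR called 0 of 3, with 1 (Psmb10) at an unadjusted p under 0.05, DESeq2 called that gene as lower, and limma-voom called 0. Psmb8, the inducible chymotrypsin-like subunit, had 42.5, 36.6, 37.2, 33.3 and 27.8 CPM in the Mboat7 ASO libraries, against 35.6, 46.3, 33.3, 38.4 and 33.8 CPM in the control ASO libraries. The gene lies on chromosome 17 (34197721 to 34201454, plus strand, GRCm38). The groups overlapped widely, with library 6 highest among Mboat7 ASO livers and library 2 highest among control ASO livers. Its log2 fold change was −0.08 ± 0.12 (SE), with a 95% interval of −0.34 to 0.18 and an edgeR Benjamini-Hochberg adjusted p of 0.625. Without control ASO library 2 the value was 0.01.

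Psmb9, the inducible caspase-like subunit, had 37.4, 26.4, 30.0, 31.1 and 22.1 CPM in the Mboat7 ASO libraries, against 31.7, 38.8, 29.2, 30.8 and 26.7 CPM in the control ASO libraries. Libraries 6 and 2 again stood highest in their groups. Its log2 fold change was −0.09 ± 0.13 (SE), with a 95% interval of −0.39 to 0.20 and an edgeR adjusted p of 0.603. Psmb9 lies head to head with Tap1 on chromosome 17 (34181987 to 34187764, minus strand), the exons overlap by 212 bases, and the strand setting of the counting is not given, so reads in that stretch are uncertain.

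Psmb10, the inducible trypsin-like subunit (chromosome 8, 105935735 to 105938444, minus strand), had 42.6, 40.4, 33.1, 27.9 and 29.8 CPM in the Mboat7 ASO libraries, against 36.1, 47.8, 46.7, 49.5 and 39.3 CPM in the control ASO libraries. Mboat7 ASO libraries 8, 9 and 10 lay below all of the control ASO libraries, and libraries 6 and 7 lay within their range. The log2 fold change was −0.34 ± 0.13 (SE), with a 95% interval of −0.62 to −0.05 and an edgeR adjusted p of 0.0598. It passed as lower in 6 of the 20 other fits, among them DESeq2 (−0.35, adjusted p 0.0282) and edgeR without library 6 (−0.43), and not with the length trend removed (−0.14, adjusted p 0.43).

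The PA28 subunits differed in whether they passed. Psme1, PA28 alpha (chromosome 14, 55578123 to 55581529, plus strand), had 78.5, 65.3, 68.3, 64.6 and 63.3 CPM in the Mboat7 ASO libraries, against 76.5, 85.6, 75.4, 72.2 and 68.5 CPM in the control ASO libraries. Library 6 lay inside the control range and the other 4 Mboat7 ASO libraries lay below it. The log2 fold change was −0.15 ± 0.08 (SE), with a 95% interval of −0.32 to 0.01 and an edgeR adjusted p of 0.125, and without library 6 it passed at −0.22.

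Psme2, PA28 beta (chromosome 14, 55587441 to 55591113, minus strand), fell to 20.9, 22.5, 20.5, 21.9 and 19.4 CPM in the Mboat7 ASO libraries, against 27.8, 26.0, 26.6, 24.9 and 24.4 CPM in the control ASO libraries. The groups did not overlap. The log2 fold change was −0.30 ± 0.06 (SE), 18.8% lower, with an edgeR adjusted p of 0.00375, and with the length trend removed it was −0.06 (adjusted p 0.437). Of the 50-base words of its transcript, 59.3% also occur in other genes' transcripts, chiefly those of Psme2b, an intronless near-copy, so its count is uncertain. Psme2b itself was at 0.753 to 1.17 CPM in the Mboat7 ASO libraries and 0.988 to 1.59 CPM in the control ASO libraries, with a log2 fold change of −0.39 ± 0.22 (SE) that did not pass.

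The 5 inducible and PA28 genes together had 1 call of 5, as lower, with a median log2 fold change of −0.15, against 17.3% of all genes tested. The constitutive 20S and 19S subunits had 23 calls of 31, all lower, with a median of −0.24. After removal of the length trend, edgeR called 0 of the 5 (0 also at an unadjusted p under 0.05) and their median turned to 0.06, while 4 of the 31 fell and 1 rose, with a median of −0.09, against 12.0% and 16.0% of all genes. With no normalization factor the medians were 0.01 for the 5 and −0.08 for the 31. Since the genes were not drawn as samples, no test was made between these medians.

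The constitutive partners of the inducible subunits were measured in the same libraries. Psmb6, the constitutive caspase-like subunit, fell to 102, 96.8, 94.3, 104 and 95.6 CPM in the Mboat7 ASO libraries, against 139, 119, 134, 116 and 126 CPM in the control ASO libraries. The groups did not overlap, the highest Mboat7 ASO library being library 9 and the lowest control ASO library being library 4. The log2 fold change was −0.36 ± 0.06 (SE), 22.2% lower, with an edgeR adjusted p of 0.00285.

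Psmb7, the constitutive trypsin-like subunit, fell to 89.5, 84.7, 91.8, 99.4 and 89.4 CPM in the Mboat7 ASO libraries, against 120, 109, 114, 104 and 112 CPM in the control ASO libraries. These groups did not overlap either. The log2 fold change was −0.30 ± 0.06 (SE), 18.8% lower, with an edgeR adjusted p of 0.00393. Its exons overlap those of Nek6 on the opposite strand by 405 bases, which makes its count uncertain in the same way as that of Psmb9, and Psmc3 (215 bases with Slc39a13), Psmd1 (with Htr2b), Psmd13 (342 bases with Sirt3) and Psma4 (114 bases with AY074887) share this limit. With the length trend removed, Psmb6 was at −0.10 (adjusted p 0.252) and Psmb7 at −0.09 (adjusted p 0.272).

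Psmb5, the constitutive chymotrypsin-like subunit, had 23.3, 19.1, 21.3, 21.3 and 22.9 CPM in the Mboat7 ASO libraries, against 28.5, 24.2, 25.6, 21.5 and 22.4 CPM in the control ASO libraries. Control ASO libraries 4 and 5 lay within the range of the Mboat7 ASO livers. The log2 fold change was −0.18 ± 0.08 (SE), with a 95% interval of −0.36 to 0.00 and an edgeR adjusted p of 0.108. Its transcript shares 57.1% of its 50-base words with other transcripts, so its level is uncertain.

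**Figure D3:**
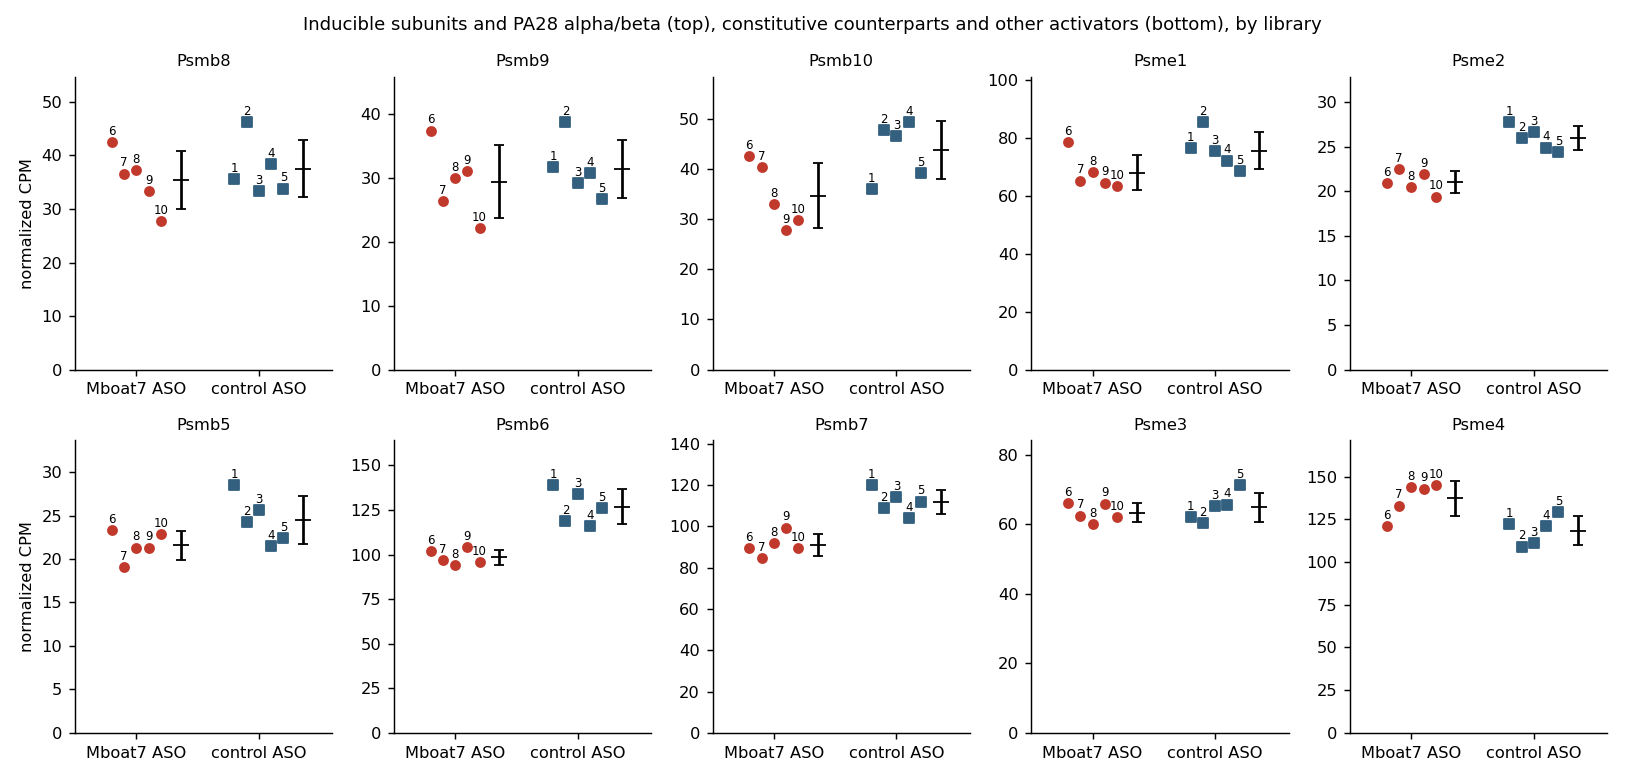
Normalized CPM of each library (points, labelled by library number) with mean ± SD (bars, n = 5) for the inducible subunits and PA28 alpha and beta in the top row, and for their constitutive counterparts and the other activators in the bottom row. Psme2, Psmb6 and Psmb7 show 2 groups that do not overlap, while Psmb8 and Psmb9 overlap widely, with libraries 6 and 2 on top.

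Scaled per kb of transcript, the catalytic genes ranked Psmb6, Psmb7, Psmb10, Psmb5 and then Psmb8 and Psmb9 in the Mboat7 ASO livers. The levels were 123 ± 5.33, 78.4 ± 4.66, 26.5 ± 4.93, 24.0 ± 1.84, 21.8 ± 3.33 and 21.8 ± 4.19 normalized CPM per kb (SD, n = 5). In the control ASO livers the levels in the same order of genes were 159 ± 12.5, 96.6 ± 5.16, 33.5 ± 4.45, 27.2 ± 3.10, 23.0 ± 3.26 and 23.2 ± 3.35 normalized CPM per kb (SD, n = 5). Psmb6 and Psmb7 stood clear of the others in both groups, while the neighbours from Psmb10 down lay within the spread between libraries in the Mboat7 ASO livers. The place of Psmb5 in this order is uncertain. Its transcript shares 57.1% of its words with other transcripts, against 2.67% for Psmb6 and 28.1% for Psmb7.

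The ratio of an inducible gene to its constitutive partner within a library does not depend on the scaling of that library. Such a ratio can still carry the length trend, as the transcripts of each pair differ in length. The Psmb8 to Psmb5 ratio of counts was 1.65 ± 0.279 in the Mboat7 ASO libraries and 1.55 ± 0.292 in the control ASO libraries (SD, n = 5; difference 0.10 ± 0.17 on the log2 scale, 2-sided exact permutation p = 0.611, 0.764 adjusted over the 5 ratios). The Psmb9 to Psmb6 ratio was 0.298 ± 0.0507 in the Mboat7 ASO libraries and 0.250 ± 0.0479 in the control ASO libraries (difference 0.25 ± 0.16, exact permutation p = 0.159, adjusted 0.397). The Psmb10 to Psmb7 ratio was 0.385 ± 0.0879 in the Mboat7 ASO libraries and 0.395 ± 0.0697 in the control ASO libraries (difference −0.05 ± 0.19, exact permutation p = 0.833, adjusted 0.833), and the sign of this difference turned without library 9 or without library 4. None of the 3 differences passed the permutation test, and the ranges of the groups overlapped for each ratio. The transcript of Psmb5 shares 57.1% of its words with other transcripts, and that of Psmb8 shares 5.83%. The size of the Psmb8 to Psmb5 ratio therefore does not show which gene had more RNA.

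The other PA28 genes were set against Psme3, which encodes PA28 gamma, a nuclear activator that interferon-gamma does not induce. The Psme1 to Psme3 ratio was 1.07 ± 0.0855 in the Mboat7 ASO libraries and 1.17 ± 0.169 in the control ASO libraries (SD, n = 5; log2 difference −0.12 ± 0.11, exact permutation p = 0.302, adjusted 0.503). The Psme2 to Psme3 ratio was 0.333 ± 0.0195 in the Mboat7 ASO libraries and 0.402 ± 0.0419 in the control ASO libraries (log2 difference −0.27 ± 0.08, exact permutation p = 0.0159, adjusted 0.0794). The smallest p that 5 libraries against 5 can give is 0.00794, and the Psme2 difference did not pass after adjustment. With the sum of the constitutive alpha and beta subunits in place of Psme3, the differences turned to 0.16 for Psme1 and 0.01 for Psme2. The ratios to Psme3 were not corrected for length, and the transcripts are 1.11 kb for Psme1, 0.962 kb for Psme2 and 2.66 kb for Psme3. With the length trend removed, the log2 fold changes were 0.06 for Psme1, −0.06 for Psme2 and −0.00 for Psme3. The count of Psme2 is also uncertain, as 59.3% of the words of its transcript are shared.

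Markers of several non-hepatocyte cell types, among them leukocytes, cells that carry the inducible subunits, were higher in the Mboat7 ASO livers. All 10 pan-leukocyte markers rose, and their summed level was 206 to 506 CPM in the Mboat7 ASO libraries and 142 to 213 CPM in the control ASO libraries. Of 9 macrophage and Kupffer cell markers 8 rose, with sums of 202 to 631 CPM in the Mboat7 ASO libraries and 118 to 258 CPM in the control ASO libraries. All 5 neutrophil markers in the table rose, with sums of 2.34 to 38.7 CPM in the Mboat7 ASO libraries and 0.304 to 1.76 CPM in the control ASO libraries. Camp, a neutrophil granule gene, was at 0 in 4 control ASO libraries and in none of the Mboat7 ASO libraries. Of the 5 T and NK cell markers tested, edgeR, DESeq2 and limma-voom each called 0, with 0 at an unadjusted p under 0.05, and their sums were 1.88 to 7.94 CPM in the Mboat7 ASO libraries and 1.30 to 5.96 CPM in the control ASO libraries. Of 2 B cell markers tested 1 rose, with sums of 1.88 to 4.65 CPM in the Mboat7 ASO libraries and 0.785 to 1.87 CPM in the control ASO libraries. Endothelial markers (4 of 5 rose) summed to 132 to 187 CPM in the Mboat7 ASO libraries and 82.8 to 121 CPM in the control ASO libraries, and stellate cell markers (4 of 5 rose) to 221 to 323 CPM in the Mboat7 ASO libraries and 116 to 198 CPM in the control ASO libraries. Of 4 cholangiocyte markers edgeR called 0 in either direction, and all 4 had a negative value (median log2 fold change −0.23). For comparison, 21.2% of all genes tested rose.

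Within each group the library with the highest pan-leukocyte sum, library 6 at 506 CPM and library 2 at 213 CPM, was also the highest for Psmb8, Psmb9 and Psme1. Library 6 was the highest of its group for Psmb10 too, and library 2 was the second highest of its group. Psme2 went otherwise, with library 7 (22.5 CPM) highest among Mboat7 ASO livers and library 1 (27.8 CPM) highest among control ASO livers. At the low end the order was mixed. Libraries 9 and 10, lowest of their group for the leukocyte sum, were lowest for Psmb8, Psmb10 and Psme1. For Psmb9 library 9 was the second highest. Library 1, lowest of its group for that sum, was lowest for Psmb10 and second highest for Psmb9 and Psme1. Libraries 6 and 2 were also highest of their groups for Psmg4 and Psma8, which are not inducible subunits. The summed level of the 3 inducible genes was 122, 103, 100, 92.3 and 79.7 CPM in Mboat7 ASO libraries 6 to 10, against 103, 133, 109, 119 and 99.8 CPM in control ASO libraries 1 to 5. The part of these cell types in the subunit levels was not tested.

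**Figure D4:**
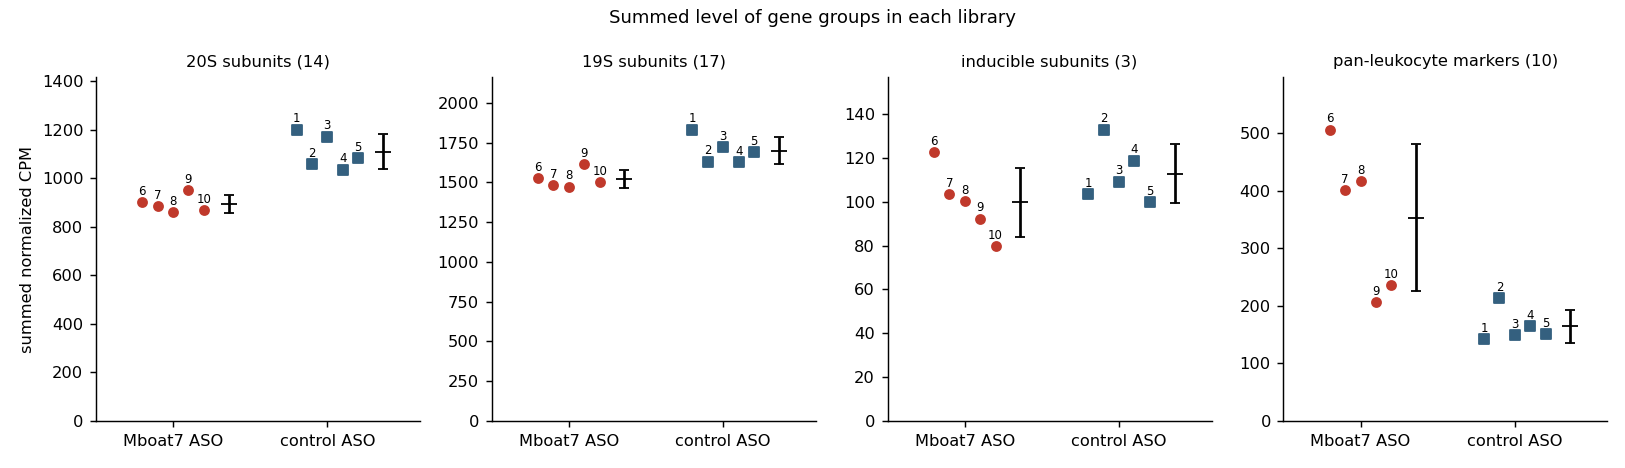
Summed normalized CPM in each library (points, labelled by library number) with mean ± SD (bars, n = 5) for 14 constitutive 20S subunits, 17 constitutive 19S subunits, 3 inducible subunits and 10 pan-leukocyte markers. The 20S and 19S sums of all Mboat7 ASO libraries lie below those of all control ASO libraries, the inducible sums overlap, and the leukocyte sums are 206 to 506 in the Mboat7 ASO libraries and 142 to 213 in the control ASO libraries.

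Most genes of the constitutive 20S core fell in the upper-quartile fit, and few did with the length trend removed. The 14 constitutive alpha and beta genes had 12 calls, all lower, against 17.3% of all genes tested, and a median log2 fold change of −0.33. After removal of the length trend 2 of the 14 fell, with a median of −0.10, against 12.0% of all genes, and with no normalization factor 7 fell, with a median of −0.18, against 6.10% of all genes. Their summed level was 901, 886, 861, 952 and 868 CPM in the Mboat7 ASO libraries, against 1200, 1058, 1171, 1035 and 1083 CPM in the control ASO libraries. The sums did not overlap, and library 9 was the highest of the Mboat7 ASO group and library 1 the highest of the control ASO group. These libraries were also the highest of their groups for 24 and 25 of the 31 constitutive subunits. Of 8 hepatocyte markers 5 fell and 1, Apob, rose in the Mboat7 ASO livers, against 17.3% and 21.2% of all genes tested. The part of these changes in the subunit levels was not tested.

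All 4 non-catalytic beta subunits, which hold the beta rings together, fell without overlap. Of all genes tested, 17.3% fell and 10.7% lay lower without overlap. With the length trend removed 1 of the 4 passed as lower, against 12.0% of all genes. Psmb3 fell to 15.4, 15.8, 12.9, 16.5 and 13.5 CPM in the Mboat7 ASO libraries, against 23.1, 19.1, 22.7, 18.3 and 19.1 CPM in the control ASO libraries (log2 fold change −0.46 ± 0.09, SE, 27.4% lower, edgeR adjusted p 0.00459). It had the most negative value of the members that passed, and 55.8% of its 50-base words occur in other transcripts. Psmb1 fell to 101, 106, 105, 113 and 99.4 CPM in the Mboat7 ASO libraries, against 149, 127, 147, 126 and 133 CPM in the control ASO libraries (−0.38 ± 0.06, 23.1% lower, edgeR adjusted p 0.00278). Psmb1 was the one that stayed past the threshold with the length trend removed, at −0.25 (adjusted p 0.0168). Psmb2 and Psmb4 fell by 0.34 and 0.33 on the log2 scale, to 50.6 to 57.5 CPM and 103 to 123 CPM in the Mboat7 ASO libraries, against 63.7 to 73.5 CPM and 127 to 154 CPM in the control ASO libraries. The values after removal of the length trend were −0.19 (adjusted p 0.141) for Psmb3, −0.09 (adjusted p 0.317) for Psmb2 and −0.12 (adjusted p 0.211) for Psmb4, and these calls were lost.

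Of the 7 alpha subunits, which form the outer rings and the gate of the barrel, 6 fell, against 17.3% of all genes tested. With the length trend removed 1 fell, against 12.0% of all genes. Psma7 fell to 79.9, 76.4, 75.0, 81.8 and 77.6 CPM in the Mboat7 ASO libraries, against 106, 93.8, 106, 92.6 and 97.5 CPM in the control ASO libraries (−0.34 ± 0.06, SE, edgeR adjusted p 0.0024, the lowest among the members). Psma2 fell to 57.8, 53.1, 52.7, 57.7 and 53.4 CPM in the Mboat7 ASO libraries, against 78.9, 64.3, 72.4, 65.5 and 67.1 CPM in the control ASO libraries (−0.34 ± 0.06, edgeR adjusted p 0.00355). The groups of both genes did not overlap, and Psma2, whose reference transcript is 2.91 kb long, was still lower with the length trend removed (−0.33, adjusted p 0.00623). Psma4 fell by 0.34 and Psma6 by 0.24 on the log2 scale, without overlap. Removing the length trend put Psma7 at −0.10 (adjusted p 0.195), Psma4 at −0.12 (adjusted p 0.17) and Psma6 at −0.01 (adjusted p 0.848), and these calls were lost. Psma1 and Psma5 fell by 0.18 and 0.27 on the log2 scale with overlapping groups, 55.4% of the 50-base words of Psma5 being shared with other transcripts, and Psma3 was at −0.17 ± 0.11 (SE), which did not pass.

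Of the 17 genes of the 19S cap 11 fell and 0 rose, against 17.3% and 21.2% of all genes tested, with a median log2 fold change of −0.18. After removal of the length trend 2 fell and 1 rose (median −0.07), against 12.0% and 16.0% of all genes, and with no normalization factor 2 fell and 2 rose (median −0.02), against 6.10% and 37.1%. For the 31 constitutive 20S and 19S genes together, edgeR, DESeq2 and limma-voom each called 23 as lower and 0 as higher, with 0 higher at an unadjusted p under 0.05. The 19S sum was 1526, 1482, 1474, 1617 and 1500 CPM in the Mboat7 ASO libraries, against 1832, 1631, 1723, 1626 and 1689 CPM in the control ASO libraries. The sums did not overlap, with library 9 at 1617 CPM just under library 4 at 1626 CPM.

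Among the 6 ATPases, which form the unfolding ring, 5 fell, against 17.3% of all genes tested. With the length trend removed 1, Psmc5, fell, against 12.0% of all genes. Psmc5 fell to 66.2, 67.7, 58.7, 68.7 and 62.0 CPM in the Mboat7 ASO libraries, against 94.1, 76.8, 90.7, 82.6 and 85.3 CPM in the control ASO libraries (−0.41 ± 0.07, SE, 24.7% lower, edgeR adjusted p 0.00248). The groups did not overlap, and with the length trend removed it passed at −0.22 (adjusted p 0.0339). Psmc1 and Psmc2 fell by 0.24 and 0.22 on the log2 scale, both without overlap. Psmc3 fell by 0.24 and Psmc6 by 0.14. Psmc4 had 92.3, 91.8, 88.1, 105 and 92.8 CPM in the Mboat7 ASO libraries, against 121, 97.4, 111, 98.0 and 102 CPM in the control ASO libraries (−0.17 ± 0.07, edgeR adjusted p 0.0827), with library 9 set well above the other Mboat7 ASO libraries.

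Among the 11 non-ATPase subunits 6 fell, against 17.3% of all genes tested. With the length trend removed 1, Psmd3, fell, against 12.0% of all genes. Psmd4, a ubiquitin receptor of the cap, fell to 94.0, 92.4, 87.8, 99.1 and 87.6 CPM in the Mboat7 ASO libraries, against 134, 114, 123, 110 and 112 CPM in the control ASO libraries (−0.37 ± 0.07, SE, 22.4% lower, edgeR adjusted p 0.00314). Psmd3, a scaffold subunit of the lid, fell by 0.27 on the log2 scale to 93.0 to 99.8 CPM in the Mboat7 ASO libraries, against 107 to 120 CPM in the control ASO libraries, and was at −0.18 (adjusted p 0.0225) with the length trend removed. Psmd12, another lid subunit, fell by 0.19, and Psmd6, Psmd7 and Psmd11 fell by 0.22, 0.18 and 0.16. The deubiquitinase gene Psmd14 (−0.10 ± 0.07), the base scaffold genes Psmd1 (−0.01 ± 0.05) and Psmd2 (−0.12 ± 0.05), and the lid gene Psmd13 (−0.13 ± 0.07) did not pass.

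Psmd8, a lid subunit, was the only constitutive 20S or 19S gene with a positive value in the upper-quartile fit. It had 154, 121, 123, 141 and 154 CPM in the Mboat7 ASO libraries, against 134, 144, 117, 116 and 115 CPM in the control ASO libraries (0.15 ± 0.09, SE, edgeR adjusted p 0.235). The groups overlapped, with libraries 6 and 10 above all control ASO libraries. With the length trend removed it passed as higher, at 0.31 (adjusted p 0.0329).

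Of the other activators, Psme3 had 60.1 to 66.2 CPM in the Mboat7 ASO libraries and 60.3 to 71.3 CPM in the control ASO libraries (−0.03 ± 0.06, SE, edgeR adjusted p 0.641). Psme4, which encodes the activator PA200, was the member that rose, with 121, 133, 144, 143 and 145 CPM in the Mboat7 ASO libraries, against 122, 109, 111, 121 and 129 CPM in the control ASO libraries (0.21 ± 0.07, edgeR adjusted p 0.0322). Library 6 lay within the control range and the other 4 Mboat7 ASO libraries lay above it. Its transcript, at 6.49 kb, is the longest of the members. With the length trend removed the value was 0.02 (adjusted p 0.817), and the call was also lost with TMM or RLE normalization, with no filter on low counts, or without library 2, 3, 8, 9 or 10, where the fold change was 0.18 to 0.21.

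Psmf1, which encodes the inhibitor PI31, fell to 40.0, 42.2, 41.2, 44.7 and 39.8 CPM in the Mboat7 ASO libraries, against 45.7, 49.6, 49.3, 46.1 and 49.8 CPM in the control ASO libraries (−0.21 ± 0.05, SE, edgeR adjusted p 0.00803). The groups did not overlap. With the length trend removed it was at −0.27 (adjusted p 0.00555) for a 3.81 kb transcript, and −0.05 (adjusted p 0.506) for its 1.38 kb transcript.

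Of the 7 assembly chaperones, which help build the ring and the cap and are not part of the finished particle, 4 fell, against 17.3% of all genes tested. With the length trend removed 1, Psmd9, fell, against 12.0% of all genes. Psmg3 fell to 12.6, 12.0, 12.1, 13.0 and 11.7 CPM in the Mboat7 ASO libraries, against 19.3, 13.9, 17.0, 14.3 and 17.8 CPM in the control ASO libraries (−0.43 ± 0.09, SE, 25.5% lower, edgeR adjusted p 0.00614). Psmg1, a partner of Psmg2 in building the alpha ring, fell by 0.30 without overlap, and Psmg2 fell by 0.28. Removing the length trend put Psmg3 at −0.18 (adjusted p 0.175), Psmg1 at −0.08 (adjusted p 0.473) and Psmg2 at −0.05 (adjusted p 0.674). Psmd9, a chaperone of the ATPase ring, fell by 0.25, to 39.8 to 49.6 CPM in the Mboat7 ASO libraries, against 48.9 to 54.0 CPM in the control ASO libraries. Psmg4 (−0.10 ± 0.16), Psmd5 (−0.02 ± 0.05) and Psmd10 (−0.09 ± 0.08) did not pass.

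Members known from other tissues were at or near 0. The testis alpha subunit Psma8 had 0.358 to 1.85 CPM in the Mboat7 ASO libraries and 0.880 to 2.19 CPM in the control ASO libraries (−0.38 ± 0.39, SE), and did not pass. The thymus beta subunit Psmb11 had no count in any library. Psmc3ip, a recombination gene that matches the symbol rule without being a subunit, had 0.329 to 0.697 CPM in the Mboat7 ASO libraries and 0.336 to 0.676 CPM in the control ASO libraries.

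Subunits and cofactors with other names were mixed. Of 16 such genes 4 fell and 1 rose, against 17.3% and 21.2% of all genes tested, with a median log2 fold change of −0.14. With no normalization factor 0 fell and 5 rose, against 6.10% and 37.1% of all genes. Adrm1 and Shfm1, which encode further cap subunits, fell by 0.44 and 0.33 on the log2 scale, and Pomp, the chaperone that matures the core, fell to 86.5 to 104 CPM in the Mboat7 ASO libraries, against 108 to 134 CPM in the control ASO libraries (−0.32 ± 0.07, SE, edgeR adjusted p 0.00603). With the length trend removed, Adrm1 was at −0.28 (edgeR adjusted p 0.082), Shfm1 at −0.16 (0.163) and Pomp at −0.17 (0.0918), and these calls were lost. Zfand5, a proteasome-binding zinc finger gene, fell by 0.32 and still passed with the trend removed (−0.53, adjusted p 0.00361). Ube3c, a ubiquitin ligase of the cap, rose to 58.6 to 70.2 CPM in the Mboat7 ASO libraries, against 47.7 to 57.9 CPM in the control ASO libraries (0.33 ± 0.07, edgeR adjusted p 0.00576). Ube3c still passed with the length trend removed, at 0.21 (edgeR adjusted p 0.0449). With the trend fitted on the shortest principal transcript of each gene it did not pass, at 0.20 (adjusted p 0.0541).

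Nfe2l1, the gene of NRF1, had 184 to 236 CPM in the Mboat7 ASO libraries and 179 to 216 CPM in the control ASO libraries (0.09 ± 0.08, SE, edgeR adjusted p 0.361). Of the 10 genes tested for NRF factors, their processing and the VCP segregase, 4 fell and 1 rose, against 17.3% and 21.2% of all genes tested. With no normalization factor 0 fell and 4 rose, against 6.10% and 37.1% of all genes. Nfe2l2, the gene of NRF2, rose by 0.22 on the log2 scale, while Mafg (a DNA-binding partner of NRF factors) fell by 0.32, Syvn1 (a ubiquitin ligase of the endoplasmic reticulum) by 0.39 and Ufd1l (a cofactor of VCP) by 0.27. With the length trend removed these genes still passed, Mafg at −0.43 (edgeR adjusted p 0.00579). With the trend fitted on the shortest principal transcript of each gene, Mafg did not pass, at −0.08 (adjusted p 0.472). Syvn1 was at 131 CPM in control ASO library 1 and at 81.9 to 96.8 CPM in the other control ASO libraries. Vcp fell by 0.16. Among 6 ubiquitin and activating enzyme genes tested, Uba6, an activating enzyme, rose by 0.64. Uba1, the main activating enzyme, did not pass (0.11 ± 0.05). The ubiquitin gene Ubb did not pass either (−0.34 ± 0.27). Its level was near the minimum for testing, at 0.559 to 0.793 CPM in the Mboat7 ASO libraries and 0.532 to 1.11 CPM in the control ASO libraries.

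The genes of interferon signalling and class I presentation, which are known to move with the immunoproteasome, were mostly not called. Of 26 tested, 3 rose and 3 fell, against 21.2% and 17.3% of all genes tested, with a median log2 fold change of −0.07. Irf1 (−0.13 ± 0.19, SE, edgeR adjusted p 0.612), Nlrc5 (−0.08 ± 0.09, adjusted p 0.53) and Tap1 (−0.12 ± 0.11, adjusted p 0.398), transcription regulators and a peptide transporter subunit, did not pass in the upper-quartile fit. Igtp and Irgm1, interferon-induced GTPases, fell by 0.74 and 0.34 on the log2 scale, and H2-K1, a class I heavy chain gene, fell by 0.26. Jak2, a kinase of the interferon-gamma receptor, rose by 0.26. With the length trend removed, 3 of the 26 fell and 1 rose, against 12.0% and 16.0% of all genes. H2-K1 was then at −0.11 (edgeR adjusted p 0.191) and Jak2 at 0.14 (adjusted p 0.156), and these calls were lost. Ifngr1, a chain of the interferon-gamma receptor, had risen by 0.46 and still passed as higher, at 0.55 (adjusted p 0.0137). Igtp and Irgm1 still passed as lower, at −0.63 (edgeR adjusted p 0.04) and −0.27 (adjusted p 0.0371). Nlrc5 passed as lower in this fit, at −0.30 (adjusted p 0.0359). Ifng itself had 7 counts over all Mboat7 ASO libraries and 2 counts over all control ASO libraries, below the minimum for testing.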

How the data were processed

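Liver RNA was read as 50-base single-end reads, 5 Mboat7 ASO and 5 control ASO libraries. The submitters' notes name Trim Galore 0.3.3 and FastQC 0.11.3 for trimming and quality, and STAR on mm10 for alignment and gene counting. Raw counts by gene symbol were deposited, with no normalization by the authors. The strand column taken from the counting is not stated in these sources. A further 10 columns of per-sample values match no label and were not used.

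Genes with 1 CPM in at least 1 library (12609) were normalized by upper quartile and tested with edgeR 4.0.16 (quasi-likelihood, R 4.3.3) at a Benjamini-Hochberg FDR of 0.05 over all genes, with no covariate. The SE is the log2 fold change divided by the root of F, and 95% intervals use the total degrees of freedom of the gene. DESeq2 1.42.0 and limma 3.58.1 were alternatives. Ratios were of counts plus 0.5 and were tested by exact permutation over libraries. Transcript lengths are GENCODE principal transcripts on GRCm38, the assembly of mm10, and the length trend was a loess curve with span 0.3. Alternatives changed the normalization, filter, test and length, left out each library in turn, or left out libraries 2 and 9. The shortest principal transcript was added after the data were seen.

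The members, role groups and gene lists were chosen with earlier results of these data known. Genes named were the inducible and PA28 genes with their counterparts, the 3 members of lowest p in each role, members called against the majority, below the filter or set apart in 1 library, and the 4 genes of lowest p in each related list with Nfe2l1, Pomp, Irf1, Tap1 and Nlrc5, except that a few genes are not reported here, though counts of the lists include them. Other genes were named after their values were seen. The libraries carry their own numbers, but separate mice are not stated, so p-values measure the spread between these libraries, and no libraries of a group agreed within sampling noise (chi-square over its degrees of freedom, 20.1 to 79.2). On simulated counts made from these libraries (12065 genes, 50 changed per fold), the edgeR step called 8% of the genes changed 1.2-fold, 68% at 1.5-fold, 80% at 2-fold and 96% at 4-fold, and 0.0337% of unchanged genes.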

Additional observations from a re-analysis of the deposited data

Results flagged for a closer look

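Psmc4 reached 105 CPM in Mboat7 ASO library 9, set apart from the other 4 Mboat7 ASO libraries at 88.1 to 92.8 CPM. Of 106 groups of 5 libraries examined in this way, 1 stood apart, and chance gives about 5% of groups.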

How the results depend on the processing

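With the length trend removed (and, in brackets, with the shortest principal transcript of each gene, chosen after seeing the data), 6 (6) members fell, 4 (5) constitutive 20S and 19S subunits fell and 1 (1) rose, the medians were −0.08 (−0.10) for all members and −0.09 (−0.11) for the constitutive subunits, and log2 fold changes were 0.07 (0.05) for Psmb8, 0.09 (0.07) for Psmb9, 0.06 (0.04) for Psme1, −0.06 (−0.09) for Psme2, 0.07 (0.04) for Psmb5, 0.03 (0.01) for Psma1, 0.06 (0.04) for Psmd14, 0.21 (0.16) for Psmg4, 0.08 (0.07) for Psmd10 and 0.00 for Psmc4. With no normalization factor, 11 members fell and 3 rose, 9 constitutive subunits fell and 2 rose, the medians were −0.07 and −0.08, and values were 0.08 for Psmb8, 0.07 for Psmb9, 0.01 for Psme1, 0.02 for Psmc6, 0.15 for Psmd1, 0.04 for Psmd2, 0.00 for Psmd11, 0.03 for Psmd13, 0.06 for Psmd14, 0.12 for Psme3, 0.06 for Psmg4, 0.14 for Psmd5 and 0.07 for Psmd10. With no normalization factor 6.10% of all genes tested fell and 37.1% rose. With a 2-fold threshold 0 members rose and 0 fell, and 0 constitutive subunits fell. No member rose (0) with TMM, with RLE, with no filter or without libraries 2 and 9. Psmb10 passed with TMM (−0.36), RLE (−0.35) and DESeq2 (−0.35). Without libraries 2 and 9 Psmb8 was at 0.03 and the Psmb10 to Psmb7 ratio differed by 0.11. With all constitutive alpha and beta subunits as the denominator the Psme1 and Psme2 ratios differed by 0.16 and 0.01. Leaving out each library in turn gave 0 to 1 members that rose and values of −0.16 to 0.01 for Psmb8, −0.43 to −0.27 for Psmb10, −0.22 to −0.11 for Psme1, −0.03 to 0.02 for Psmd1, −0.06 to 0.00 for Psme3, −0.14 to 0.06 for the Psmb10 to Psmb7 ratio and −0.32 to −0.23 for the Psme2 to Psme3 ratio. The causes were not tested. No paired analysis was possible because the labels number the libraries 1 to 5 and 6 to 10, so the groups share no replicate number. The simulated 1.2-fold changes, near the size seen in most members, were called in 8% of genes. That simulation changed 200 of 12065 genes, while 4851 of the 12609 genes tested were called in the data. The threshold on p was therefore not the same, and the 8% does not give the share called among these members. A member that did not pass may still differ by that much.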
